A study of Mus musculus with 2 samples.

Results

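The miR-26 family of the mouse consists of 3 microRNA genes, Mir26a-1, Mir26a-2 and Mir26b, taken by their GENCODE M21 symbols from the 2202 microRNA genes counted in the series, and all 3 were found. MicroRNA-seq, which reads RNA of less than 30 bases, was done on total RNA from the left cerebral cortex of male adult mice of the strain 5xFAD/CAST, 8 to 10 months old. 5xFAD names transgenic mice that deposit amyloid in the brain, and CAST is the short name of a strain bred from wild mice. The transgene status of the animals is not stated in the labels, and no other genotype, treatment or control group is among the samples. The 2 libraries are biological replicates 1 and 2 of this 1 group. They were made from different tissue samples under the same donor identifier, and whether these come from separate animals is not clear. Biological and technical parts of the difference between the libraries cannot be told apart, and p-values here set it against counting error only.

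A microRNA is cut from a hairpin precursor, and either of its arms, 5p or 3p, can be loaded into an Argonaute protein to repress messenger RNAs. Base pairing with these targets rests mainly on the seed, bases 2 to 8 of the mature microRNA. The miR-26 genes lie inside the genes of the small C-terminal domain phosphatases, which remove phosphate from RNA polymerase II and act with the repressor REST to keep neuronal genes off outside neurons. In zebrafish, miR-26b is known to repress its own host transcript during neuronal differentiation. In mammals, miR-26 is known as a repressor of the chromatin methyltransferase Ezh2.

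The mature sequences show which reads each gene can hold by itself. They are RefSeq sequences on GRCm38.p6, the patch release of mm10, matched by symbol for 3 of 3 genes and written 5′ to 3′ with the seed in capitals. The 3 RefSeq hairpins were identical to the GENCODE transcripts.
miR-26a-5p, made by Mir26a-1 at chr9:119031811-119031832 and by Mir26a-2 at chr10:126995543-126995564, both on the plus strand: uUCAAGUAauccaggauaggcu
miR-26b-5p, made by Mir26b at chr1:74394324-74394344 on the plus strand: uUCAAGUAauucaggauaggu
miR-26a-1-3p at chr9:119031850-119031871: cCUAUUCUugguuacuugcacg
miR-26a-2-3p at chr10:126995581-126995602: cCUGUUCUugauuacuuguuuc
miR-26b-3p at chr1:74394360-74394381: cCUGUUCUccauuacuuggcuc

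The 5p arms of the 3 genes have 1 seed in common, UCAAGUA, which no other gene in the RefSeq table has in a mature arm. Counted from 1 at the 5′ end, miR-26b-5p differs from miR-26a-5p by C11U and C21U, both outside the seed, and it is 1 base shorter (21 against 22 bases). The 3p arms fall into 2 seeds. miR-26a-2-3p and miR-26b-3p have the seed CUGUUCU, which 4 genes in the table have, and miR-26a-1-3p differs from miR-26a-2-3p within the seed by A4G and has a seed that no other gene has. Outside the seed the 3p arms of Mir26a-1 and Mir26a-2 differ further, so that 6 of 22 bases differ in all, and these arms tell the genes apart.

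The hairpins are printed with capitals on the part that decides how a read can be assigned. For Mir26a-1 and Mir26a-2 the capitals mark the stretch that both hairpins hold, and for Mir26b they mark the 5p arm.
Mir26a-1 (chr9:119031796-119031885, plus strand): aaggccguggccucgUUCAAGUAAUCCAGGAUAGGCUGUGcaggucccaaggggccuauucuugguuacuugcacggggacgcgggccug
Mir26a-2 (chr10:126995530-126995613, plus strand): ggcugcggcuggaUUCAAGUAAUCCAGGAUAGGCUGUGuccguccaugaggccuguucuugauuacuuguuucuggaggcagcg
Mir26b (chr1:74394310-74394394, plus strand): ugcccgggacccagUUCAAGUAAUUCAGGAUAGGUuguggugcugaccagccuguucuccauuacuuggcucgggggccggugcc

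The stretch common to Mir26a-1 and Mir26a-2 is 25 bases long and covers the whole of miR-26a-5p with 3 bases beyond its 3′ end. A read that lies inside it matches both genes. In the deposited tables, a read with more than 1 mapping place enters a separate total and no gene count. Of the 69 windows of 22 bases in the Mir26a-1 hairpin, 4 occur in another counted hairpin, and of the 63 in Mir26a-2, 4 do. On the annotated strands Mir26b shares at most 11 bases with another counted hairpin, and 0 of its 64 windows occur elsewhere among them on either strand. The gene counts of Mir26b can therefore hold both of its arms. Those of Mir26a-1 and Mir26a-2 can hold a 5p read only if it runs past the common stretch with bases that fit 1 of these genes better. The tables do not separate arms, and the rest of the genome was not searched.

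**Figure D1:**
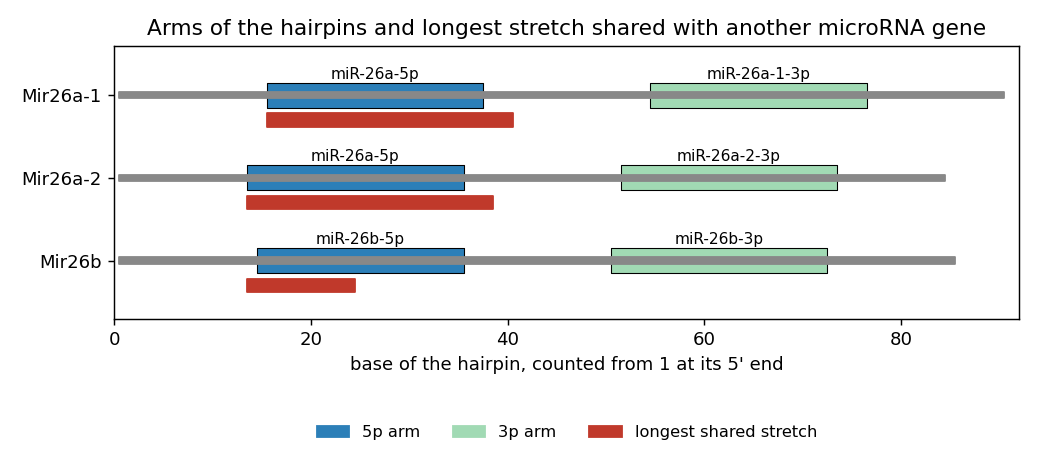
Position of the 5p arm, the 3p arm and the longest stretch shared with another counted microRNA gene along the hairpins of the 3 miR-26 genes, in bases from the 5′ end. The shared stretch of 25 bases covers the 5p arm in Mir26a-1 and Mir26a-2, and the shared stretch of Mir26b is 11 bases.

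The 3 genes lie on different chromosomes, each in an intron of a paralogous phosphatase gene on the same strand (mm10, GENCODE M21). Mir26a-1 (ENSMUSG00000065513.1) is at chromosome 9, 119031796 to 119031885, in intron 5 of the 7 introns of Ctdspl. Mir26a-2 (ENSMUSG00000065430.1) is at chromosome 10, 126995530 to 126995613, in intron 5 of the 7 introns of Ctdsp2. Mir26b (ENSMUSG00000065468.1) is at chromosome 1, 74394310 to 74394394, in intron 4 of the 6 introns of Ctdsp1. These numbers are those of the principal coding transcript of each host. The introns differ in size, with 3283 bases around Mir26a-1, 1946 around Mir26a-2 and 564 around Mir26b. Mir26b lies 245 bases and Mir26a-2 241 bases before the next exon, and Mir26a-1 lies 1650 bases before it. Of the annotated Ctdsp2 transcripts, 2 have an exon that starts at the last base of the Mir26a-2 hairpin, an overlap of 1 base, and no exon of Ctdspl or Ctdsp1 overlaps a miR-26 hairpin. The miR-26 genes are not clustered with other expressed microRNAs. Within 10 kb there is no other counted microRNA gene at Mir26a-1 or Mir26b, and at Mir26a-2 there is 1, Mir546, with 0 reads in both libraries.

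**Figure D2:**
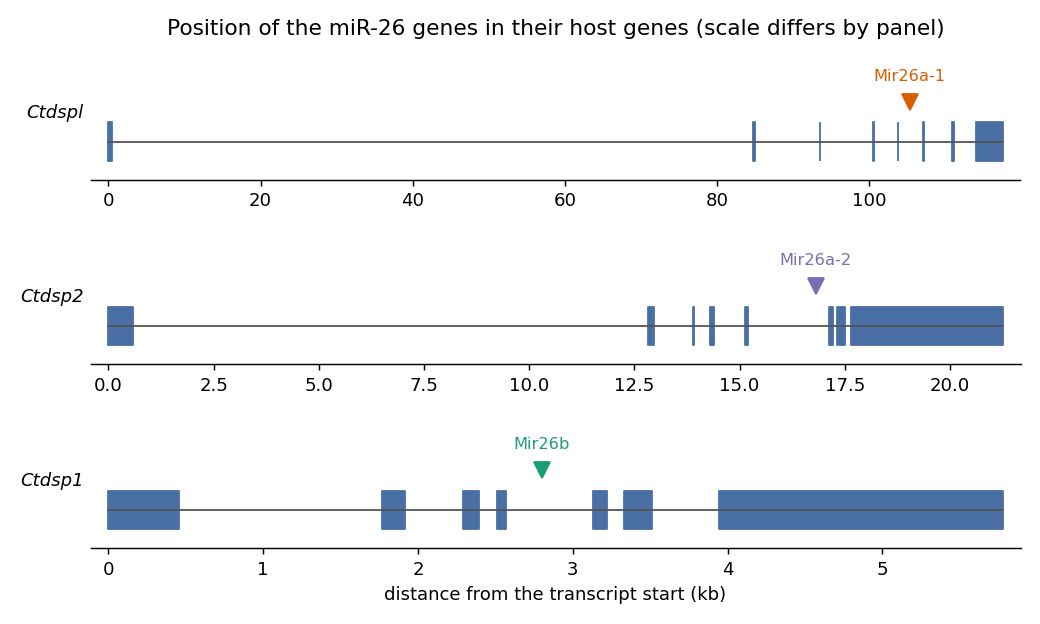
Exons (boxes) of the principal coding transcript of Ctdspl, Ctdsp2 and Ctdsp1 by distance from the transcript start in kb, with the place of each miR-26 gene (triangle). Each gene sits in an intron in the later part or the middle of its host, and the scale differs between panels.

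Host transcripts were searched for the seed match of miR-26 because a microRNA can act on the messenger RNA it is made from. The motif was TACTTGA, which pairs with the 5p seed, or TACTTGAA with an A after it, read on the transcript strand only in the longest annotated 3′ untranslated region of each gene. Ctdsp2 held 1 match of 7 bases in 3489 bases, and Ctdspl (3349 bases) and Ctdsp1 (1701 bases) held 0. The match in Ctdsp2 on chromosome 10 is shown with the pairing bases in capitals.
Ctdsp2, from 15 bases before the match: cccaagtgttgctctTACTTGAt
Among genes whose longest region is within 10% of the length of that of Ctdsp2, 22.8% held the match, and over all 21010 genes 9.67% did. The match is a description of these letters, and binding was not measured.

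Mir26b was far above the other genes of the family in both libraries. It had 63997 reads in replicate 1 and 34048 in replicate 2, which are 12983 and 7666 CPM (counts per 1000000 reads assigned to microRNA genes), with exact 95% Poisson intervals of 12882 to 13084 and 7585 to 7748 CPM. Its mean was 10324 ± 3759 CPM (SD, n = 2), and it stood at rank 16 in replicate 1 and rank 25 in replicate 2 among the 2202 genes. It was thus an abundant microRNA of this cortex in each library.

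Mir26a-1 and Mir26a-2 were far below Mir26b and near the middle of the detected genes, whose median was a mean of 94.7 CPM over the libraries. Mir26a-1 had 136 reads in replicate 1 (27.6 CPM, interval 23.1 to 32.6) and 886 in replicate 2 (199.5 CPM, interval 187 to 213). Mir26a-2 had 154 reads in replicate 1 (31.2 CPM, interval 26.5 to 36.6) and 428 in replicate 2 (96.4 CPM, interval 87.5 to 106). Both genes were higher in replicate 2, where Mir26b was lower. Their means were 114 ± 121.6 CPM for Mir26a-1 and 63.8 ± 46.1 CPM for Mir26a-2 (SD, n = 2). The ranks of Mir26a-1 were 269 and 163, and those of Mir26a-2 were 264 and 207. The intervals cover counting error of reads only. PCR reads without molecular identifiers are not independent molecules, so the intervals can be too narrow even for the counting error of molecules. None of the 3 genes had a read on the opposite strand in either library.

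The family as a whole took 1.30% of the reads assigned to microRNA genes in replicate 1 (exact binomial interval 1.29 to 1.31%) and 0.796% in replicate 2 (0.788 to 0.805%), a mean of 1.05 ± 0.359% (SD, n = 2). Nearly all of it was Mir26b, which made up 99.5% of the family in replicate 1 and 96.3% in replicate 2. Mir26a-1 made up 0.212% and 2.51%, and Mir26a-2 made up 0.240% and 1.21%.

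These levels are those of reads assigned to 1 gene. The libraries hold 6320188 reads in replicate 1 and 5615203 in replicate 2 that mapped to several places, and how many of them are miR-26a-5p is not given in the tables. If 1.01% of them in replicate 1, or 0.583% in replicate 2, came from the Mir26a genes, these genes together would equal Mir26b. The order of miR-26a and miR-26b as mature microRNAs cannot be read from these counts.

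**Figure D3:**
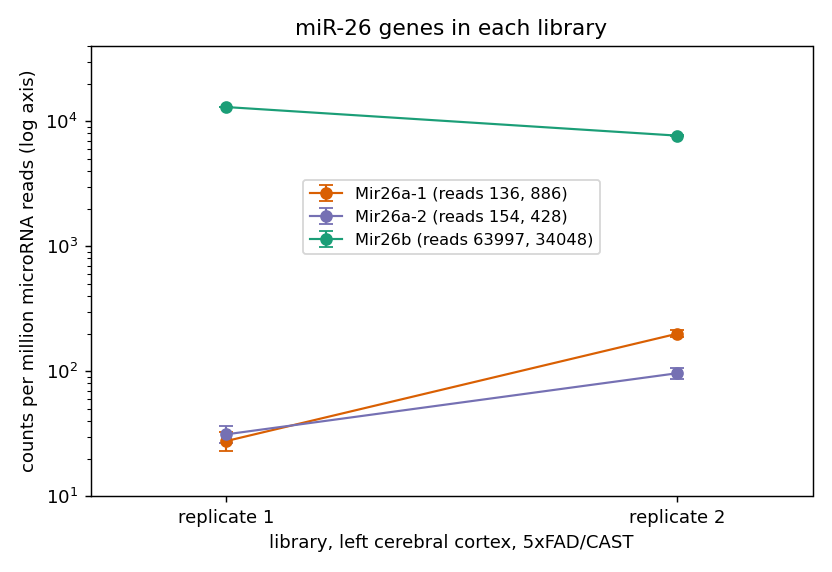
Level of each miR-26 gene in the 2 libraries in CPM on a log axis, with exact 95% Poisson intervals as bars and a line joining the values of each gene. Mir26b is at 12983 and 7666 CPM, and Mir26a-1 and Mir26a-2 lie between 27.6 and 199.5 CPM and are higher in replicate 2.

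By the reads assigned to 1 gene, Mir26a-1 and Mir26a-2 could be ordered in replicate 2 only. Reads inside their common stretch, which holds miR-26a-5p, are missing from both counts, so the full output of the genes was not ordered. In replicate 1, Mir26a-1 had 0.883 times the reads of Mir26a-2 (exact interval 0.696 to 1.12), and the counts did not differ beyond counting error (p = 0.318, exact two-sided binomial test). In replicate 2, Mir26a-1 had 2.07 times the reads of Mir26a-2 (interval 1.84 to 2.33, p = 3.57e-37, exact two-sided binomial test). Mir26b had 471 times the reads of Mir26a-1 and 416 times those of Mir26a-2 in replicate 1. In replicate 2 it had 38.4 and 79.6 times their reads. The distance of Mir26b from its relatives was thus much wider in replicate 1.

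All 3 genes differed between the libraries by more than counting error. The log2 ratio of replicate 2 to replicate 1 was 2.85 for Mir26a-1 (exact 95% interval 2.59 to 3.13, adjusted p = 2.78e-152), a 7.23-fold gap. It was 1.63 for Mir26a-2 (1.36 to 1.90, adjusted p = 7.95e-37), a 3.08-fold gap. For Mir26b it was -0.76 (-0.78 to -0.74), a 1.69-fold gap in the other direction, with an adjusted p too small for the computation to hold (below 1e-300). The test was the exact two-sided binomial test of the counts given the library totals, adjusted by Benjamini-Hochberg across all 417 genes detected with 10 or more reads per library, and it compares these libraries, not conditions. At these depths, 59.2% of the 417 genes passed it (24.7% higher and 34.5% lower in replicate 2), so that passing it does not set the miR-26 genes apart.

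The sizes of the gaps differed within the family. Over the 417 genes the median gap was 1.29-fold, and 11.3% passed the test with a gap of at least 2-fold, 6.47% being at least 2-fold higher in replicate 2. Mir26a-1 and Mir26a-2 are among these. Mir26a-1 had the fifth widest gap of all, with 0.959% of genes wider, Mir26a-2 had rank 20 (4.56% wider), and Mir26b had rank 87 (20.6% wider). Summed, the Mir26a genes went from 290 reads to 1314 between replicates 1 and 2, which is a log2 ratio of 2.33 (interval 2.15 to 2.52).

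The balance between the members was tested without library totals, by Fisher's exact test on each of the 3 pairs of genes with adjustment over the 3. From replicate 1 to replicate 2 the log2 ratio of Mir26a-1 to Mir26b was higher by 3.61 (interval 3.35 to 3.88, adjusted p = 5.12e-257). That of Mir26a-2 to Mir26b was higher by 2.39 (2.12 to 2.65, adjusted p = 3.23e-80, Fisher's exact test). That of Mir26a-1 to Mir26a-2 was higher by 1.23 (0.86 to 1.60, adjusted p = 1.05e-10, Fisher's exact test). Each pair thus stood in a different ratio in the libraries, the Mir26a genes included. Other measures also differed: 38.5% of all reads mapped to several places in replicate 1 and 33.0% in replicate 2, and 25.6% and 34.3% were unmapped. Their part in the result was not tested.

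**Figure D4:**
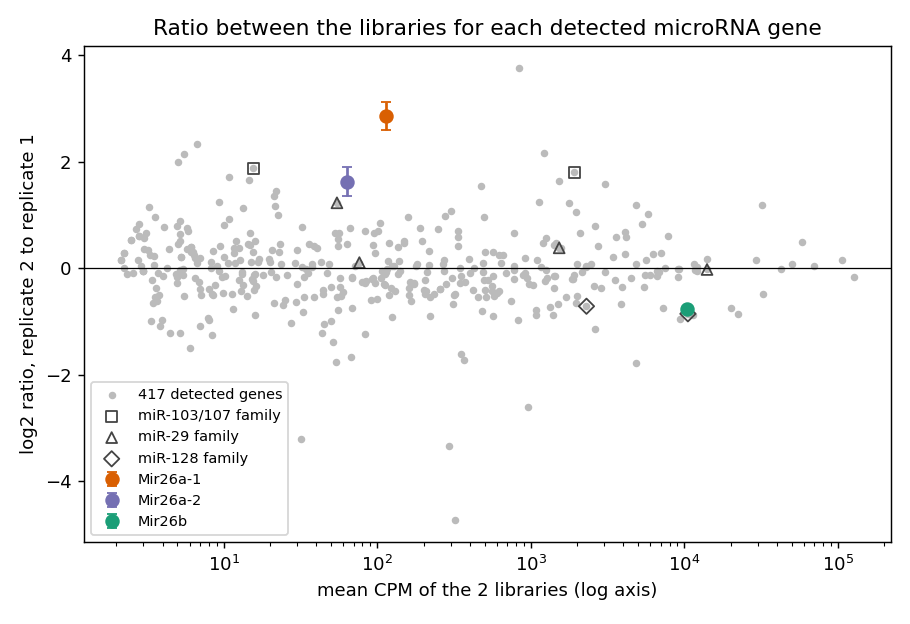
Log2 ratio of replicate 2 to replicate 1 against the mean CPM (log axis) for the 417 detected genes (grey), with the miR-26 genes in colour with exact 95% intervals and 3 other families as open symbols. Mir26a-1 at 2.85 and Mir26a-2 at 1.63 lie above most genes, and Mir26b at -0.76 lies below 0.

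Likeness of level was measured as the Euclidean distance in log2(CPM + 1) over the 2 libraries. Mir26b was closest to Mir128-1 (distance 0.07, 13556 and 7493 CPM). It was next closest to Mir23a (0.20, 14768 and 7993 CPM) and then to Mir137 (0.28, 12338 and 6351 CPM). By mean CPM it stood at rank 20, between Mir128-1 and Mir137, and the means of these 3 genes lay within 1 SD of each other. That SD is across the libraries, in which all 3 moved the same way. Within each library Mir137 lay below the interval of Mir26b, and Mir128-1 lay above it in replicate 1 and below it in replicate 2. Mir26a-2 was closest to Mir29b-1 (0.33, 32.7 and 76.6 CPM), Mir214 (0.66, 48.9 and 83.1 CPM) and Mir200c (0.67, 43.4 and 68.4 CPM). Mir26a-1 had no gene so near. Its closest genes were Mir26a-2 (1.06), Mir29b-1 (1.39) and Mir214 (1.49). By mean CPM Mir26a-1 lay between Mir7080 and Mir210, whose levels were even, at 116 and 115 CPM for Mir7080 and at 116 and 111 CPM for Mir210. With 2 libraries, likeness in these levels is a description.

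Other families in which a pair of genes makes 1 mature microRNA were set beside miR-26. The family of Mir103-1, Mir103-2 and Mir107 is built like it, with its 3 genes in introns of the pantothenate kinase genes Pank3, Pank2 and Pank1, enzymes of coenzyme A synthesis. Mir103-1 (8 and 16 reads) and Mir103-2 (33 and 109 reads) hold a common stretch of 27 bases that covers miR-103-3p, and they were at 1.62 and 3.60 CPM and at 6.69 and 24.5 CPM. Mir107, whose arms no other gene holds whole, was at 850.2 and 2971 CPM. Mir103-1 and Mir103-2 were thus below Mir107 in both libraries. Mir107 is not free of sharing. Its bases 49 to 72 also occur in Mir103-1 and cover all but the end of miR-107-3p (bases 52 to 74). Of its 66 windows of 22 bases, 5 occur in another counted hairpin. Mir103-2 and Mir107 passed the test as higher in replicate 2, with log2 ratios of 1.87 and 1.81, while Mir103-1 had too few reads in replicate 1 to be tested.

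In the miR-29 family, known for repressing collagen genes, Mir29a stood at 14129 and 13906 CPM and Mir29c at 1326 and 1730 CPM. The genes that share miR-29b-3p were lower, with Mir29b-1 at 32.7 and 76.6 CPM and Mir29b-2 at 73.6 and 79.3 CPM. Mir29b-1 had a log2 ratio of 1.23 (interval 0.95 to 1.51), and Mir29b-2, its partner, one of 0.11 (-0.11 to 0.32, adjusted p = 0.427, exact binomial test). The intervals of these ratios do not overlap, and the difference between them was not tested.

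Mir128-1, in R3hdm1, and Mir128-2, in Arpp21, share a stretch of 23 bases that covers miR-128-3p, and they were at 13556 and 7493 CPM and at 2858 and 1743 CPM. Both were lower in replicate 2, with log2 ratios of -0.86 and -0.71, close to the -0.76 of Mir26b. The part of shared arms in the level of these genes was not tested, and neither were differences between the families.

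**Figure D5:**
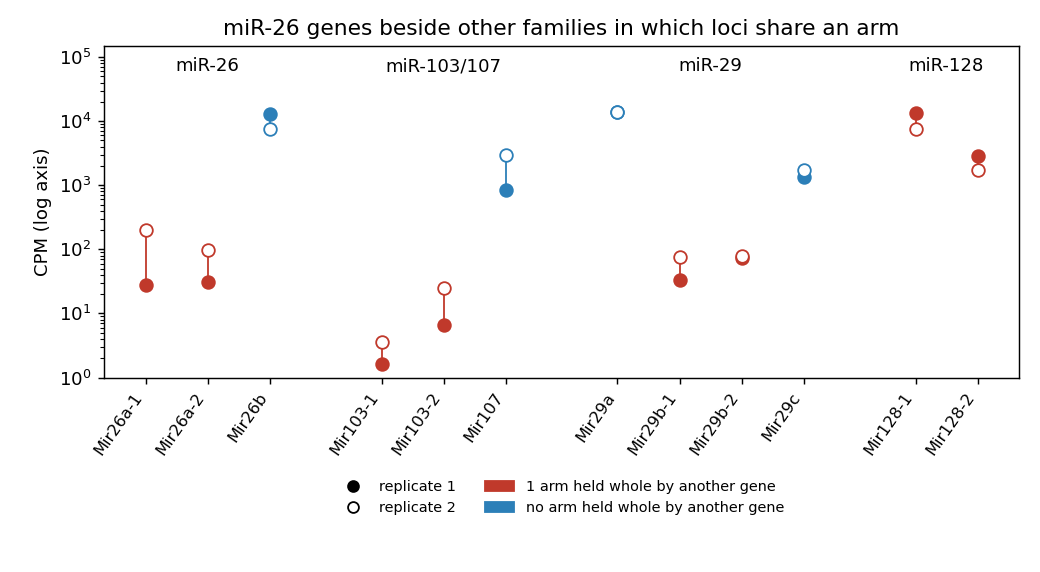
CPM (log axis) of each gene of the families of Mir26, of Mir103 and Mir107, of Mir29 and of Mir128 in replicate 1 (filled) and replicate 2 (open), in red where 1 arm is held whole by another gene and in blue where none is. In the first 3 families the red genes lie below the blue ones, from 1.62 to 199.5 CPM, and the red miR-128 genes lie between 1743 and 13556 CPM. A blue gene can still share part of an arm, as Mir107 does with Mir103-1 and Mir29c with Mir29b-1.

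MicroRNAs tied to REST, the repressor that the host phosphatases act with, were detected at 6 of 8 genes. Of all 2202 counted genes, 417 were detected, and the 8 were picked as known microRNAs, so the shares are not like for like. Mir132, whose transcription follows neuronal activity, was at 19682 and 44698 CPM, and its neighbour Mir212 at 509 and 630.2 CPM. Both passed the test as higher in replicate 2. Mir9-3 (106 and 87.8 CPM) and Mir9-1 (39.6 and 27.2 CPM), genes of a microRNA of neural progenitors, passed it as lower. Mir9-2 (12 and 16 reads) and Mir124a-1 (21 and 12 reads) did not pass, and Mir124a-2 (9 and 7 reads) and Mir124a-3 (3 and 0 reads) were not tested. The count of 2 higher and 2 lower among 6 stands beside a background of 24.7% and 34.5%, and the median log2 ratio was 0.02 against -0.05 over the 417 genes. Reads that map to several places are missing from these counts too, so they do not give the level of a mature microRNA made from several genes.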

How the data were processed

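The deposited tables hold raw counts of reads per microRNA gene, made against mm10 and GENCODE M21, per the notes deposited with them. No aligner, counter or setting is named in the sources used here. That the columns are strand-free, sense and opposite-strand counts, and that the first lines are totals of unassigned reads, was inferred from the layout, which is that of STAR gene counts. The sense column was used, and the totals stayed out of library sizes. Gene reads came to 4929428 of 16403925 reads (30.1%) in replicate 1 and to 4441328 of 16991914 (26.1%) in replicate 2, so that 1 read is 0.203 and 0.225 CPM. In replicates 1 and 2, 5.82% and 6.54% of reads lay outside microRNA genes.

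CPM scales the gene reads of a library to 1000000. Exact intervals are at 95%, and the threshold for adjusted p was 0.05. No count model with a contrast could be fitted to 1 group. The libraries were therefore compared with binomial and Fisher tests (SciPy 1.17.1, Python 3.11.15). Only the binomial test was tried on simulated data, in which counts varied by counting error alone. Alternatives used edgeR 4.0.16 and DESeq2 1.42.0 for scaling only. Shared windows were sought on both strands of the 2202 counted hairpins. The longest shared stretches and whole shared arms were sought on the annotated strand of each hairpin only. Effects of strain differences from mm10 on the counts were not measured. The genes named are the members, the families and the list set beside them, and the 3 nearest genes to each member. Mir7080, Mir210 and Mir546 were named after their values were seen. Members and lists were chosen with earlier results of these data known.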

Additional observations from a re-analysis of the deposited data

How the results depend on the processing

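Over 7 other settings for each miR-26 gene, the log2 ratio between the libraries kept its direction and stayed past the threshold, from 2.83 to 2.94 for Mir26a-1, from 1.60 to 1.71 for Mir26a-2 and from -0.78 to -0.68 for Mir26b. The settings were counts without regard to strand, TMM factors, DESeq2 size factors, the total without the 10 highest genes, all mapped reads as the denominator, no filter and a minimum of 50 reads. None of them changed the reads of the 3 miR-26 genes, which were the same with and without regard to strand. They changed only the totals or the genes tested, and a change of totals shifts all 3 ratios alike. Keeping direction and call is thus a check of scaling and adds no independent support. The count of genes that differ lay between 226 and 275 against 247 of 417, but the number of genes tested also changed between settings. With no filter 275 of 766 tested genes passed, and with a minimum of 50 reads 229 of 310 did. The share that passed was thus below the 59.2% of the main setting with no filter and above it with the stricter minimum. The split of the 247 into 103 higher and 144 lower in replicate 2 became 116 and 131 with TMM factors and 124 and 122 without the 10 highest genes in the total. Levels moved by the construction of the denominator alone. Without the 10 highest genes in the total they were 269.7 CPM for Mir26a-1, 151 for Mir26a-2 and 23832 for Mir26b, and per 1000000 mapped reads they were 45.2, 25.5 and 4146. With 1 library left out, levels ranged from 27.6 to 199.5 CPM for Mir26a-1, from 31.2 to 96.4 for Mir26a-2 and from 7666 to 12983 for Mir26b, and the family share from 0.796 to 1.30%. The log2 ratio of Mir26a-1 to Mir26a-2 ranged from -0.18 to 1.05, so its sign rests on replicate 2. No paired analysis was possible because there is only 1 group. A floor of 3 reads corresponds to 0.609 and 0.675 CPM in the libraries, under all 3 genes.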

Other observations

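Genes with an arm that another counted hairpin holds whole, as Mir26a-1 and Mir26a-2 have, were looked at together. The hairpins were read on their annotated strand only, and the grouping was made after the values of the family were seen. RefSeq arms were matched for 374 of the 417 detected genes (89.7%), and 48 of these have such an arm. Their median level was 106.4 CPM, against 106.8 CPM for the 326 genes without one. The median gap between the libraries was 0.47 on the log2 scale for the 48 and 0.34 for the 326, and gaps of at least 2-fold were found at 6 of 48 (12.5%) and at 37 of 326 (11.3%). The 6 include Mir26a-1 and Mir26a-2 themselves, with Mir103-2 and Mir29b-1 from the families above. The share among the 48 is therefore not independent of the genes that led to the grouping. No gene of the 48 had a wider gap than Mir26a-1, and 4 of the 326 did. Of the 48, 14 were higher and 20 lower in replicate 2 by the binomial test, and of the 326, 73 were higher and 114 lower. These are descriptions across genes, which are not independent replicates, and no test was made.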
